A study of Drosophila melanogaster with 6 samples.

Results

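The genes described here are 8 regulators of sex determination in Drosophila melanogaster, measured in the heads of adult males. They are dsx, fru, tra, tra2, Sxl, her, ix and msl-2. Members were chosen by name: every probe set for which the platform annotation gives 1 gene symbol, and that symbol is one of the 8, was taken. This gave 17 probe sets, 7 for fru, 3 for Sxl, 2 for dsx and 1 for each of the other genes. A probe set is the group of short probes that together give 1 signal for a transcript, so a gene with several probe sets is read in several places. The 8 genes stand among 11982 genes with a probe set annotated to 1 gene on these arrays.

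Males were held after eclosion for 6 days, either single-housed, 1 fly to a vial, or group-housed, 10 flies to a vial. Each housing condition was represented by 3 arrays, and each array carried RNA from a pool of 20 heads, so no value belongs to a single fly. The labels call the arrays biological replicates and give no strain. The title of the series names single-housed males the more aggressive group, and the question is whether head RNA differs between these social conditions.

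Sex determination in the fly is a chain of regulated splicing. In females the RNA-binding protein Sxl directs the splicing of tra, and Tra together with Tra2 directs the splicing of dsx and fru, while in males the default splice forms are made. The male forms of the transcription factors Dsx and Fru act in the nervous system in courtship and aggression, and dsx also acts in the fat body, the tissue that stores fat and secretes blood proteins in flies. A signal per probe set measures how much RNA its probes see, and it does not tell male from female splice forms unless the probes lie in a form-specific exon. Where the probes of each set lie is not given in the sources used here.

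All signals below are on the log2(intensity + 16) scale after quantile normalization, which gives every array the same distribution of values. A difference is always single-housed minus group-housed. Where probe sets of the same gene are compared within each array, SE comes from the SDs of the groups, without limma. For all other differences, SE is the standard error in a limma fit across all 13138 probe sets that passed a filter on low signal. That filter left out the dimmest 30% of probe sets, with a mean of 4.69 or less. Of the 17 member probe sets 16 passed, with all 8 genes among them. One fru probe set, 1629904_at, did not pass. The arrays were similar to each other, with correlations across probe sets between 0.972 and 0.989, and their deposited median intensities ran from 23.9 to 31.0.

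The single-housed heads gave more signal than group-housed heads on 1 of the 2 dsx probe sets and on 1 fru probe set, and less signal on tra and tra2. These 4 probe sets reached an unadjusted p of 0.05. None of the 16 tested probe sets passed limma's adjusted p of 0.05 (0 of 16, with adjusted p from 0.441 to 0.994), where 2 of 13138 probe sets on the whole array passed, or 0.0152%. At an unadjusted p of 0.05 there were 4 member probe sets among the 16, against 8.24% on the whole array. That count fell to 2 on the deposited scale, to 1 under median centring, to 1 without single-housed replicate 1, and to 2 without single-housed replicate 3, group-housed replicate 1 or group-housed replicate 3. Of the 4 as reported, 2 were higher in single-housed heads, where the whole array had 4.57%, and 2 were lower, where it had 3.67%. That split of the whole array, 55.5% higher, depended on the scaling and was 94.1% with the deposited scaling and 74.9% with median centring. After normalization the arrays of the groups did not overlap for 5 of the 16, against 14.2% of all probe sets tested. No such share is given for the deposited values. The median difference over the 16 was -0.11, beside -0.02 over all probe sets tested, and with the deposited scaling it was -0.02, beside 0.10. An exact permutation test of 3 arrays against 3 cannot give less than p = 0.1, and after Benjamini-Hochberg adjustment over the 17 probe sets its smallest value was 0.34.

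**Figure D1:**
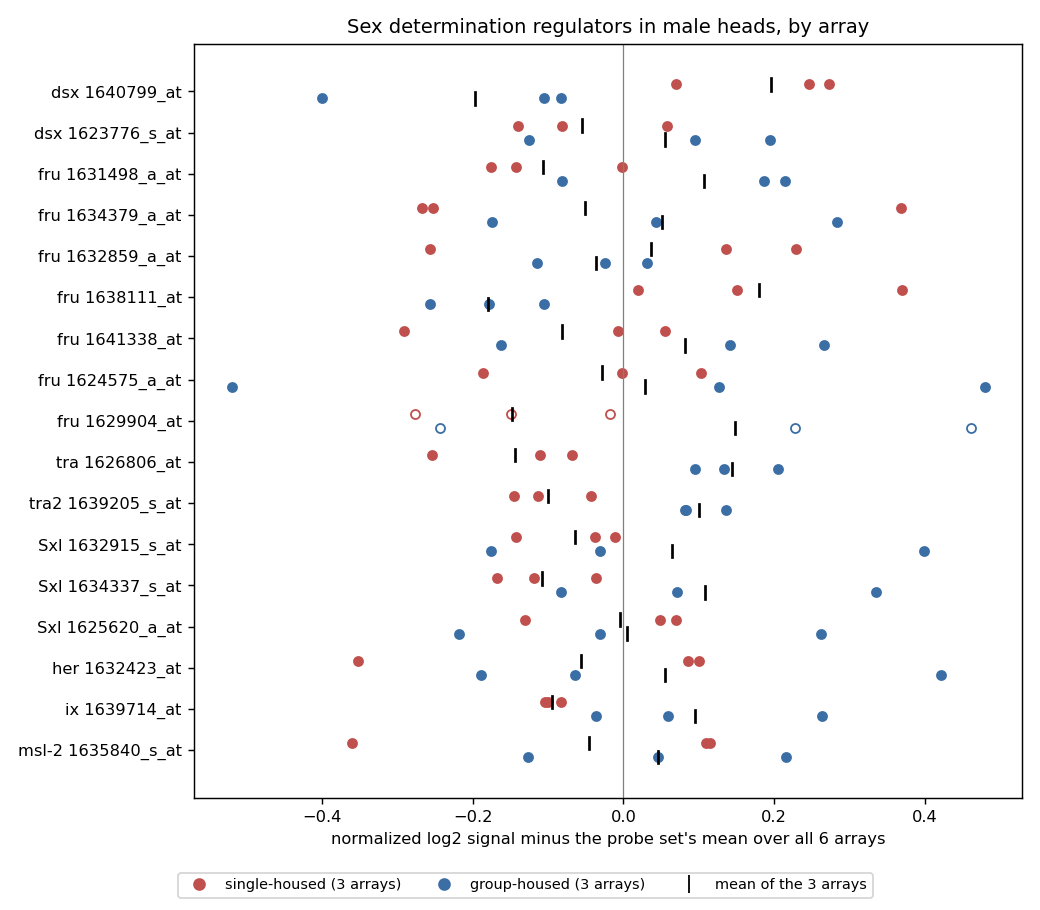
Normalized log2 signal of each member probe set on each array, drawn as the distance from that probe set's own mean over the 6 arrays. Red points are single-housed and blue points group-housed arrays, black bars are the means of 3 arrays, and open points mark the probe set below the filter. Red and blue separate completely for dsx 1640799_at, fru 1638111_at, tra, tra2 and ix.

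Sxl encodes the RNA-binding protein at the head of the chain, which is active in females and is known to stop both tra splicing of the male type and translation of msl-2. On 1632915_s_at the normalized log2 signals were 9.30, 9.17 and 9.27 in single-housed heads and 9.28, 9.13 and 9.71 in group-housed heads. One array, group-housed replicate 3, lay above all others, and the remaining values of the groups overlapped. On 1634337_s_at the signals were 8.54, 8.58 and 8.67 in single-housed heads, against 8.77, 8.62 and 9.04 in group-housed heads. On 1625620_a_at they were 7.37, 7.19 and 7.39 in single-housed heads, against 7.29, 7.10 and 7.58 in group-housed heads. Group-housed replicate 3 was thus the highest array on all 3 probe sets, and the groups overlapped on each.

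The log2 differences of the Sxl probe sets were -0.13 (SE 0.14), -0.22 (SE 0.11) and -0.01 (SE 0.13), with limma adjusted p of 0.839, 0.665 and 0.994. Without group-housed replicate 3 the first and the third were at 0.04 and 0.12, and the second at -0.10. The within-array difference between 1634337_s_at and 1625620_a_at differed between the groups by -0.21 (SE 0.068), with 1.28 ± 0.11 in single-housed heads and 1.49 ± 0.032 in group-housed heads (SD, n = 3 each, exact permutation p = 0.1). That between 1632915_s_at and 1625620_a_at was at -0.12 (SE 0.049, exact permutation p = 0.1). For these 2 of the 3 Sxl pairs, both with 1625620_a_at, the groups did not overlap, against 8.93% of such pairs on the whole array. For the third, 1632915_s_at minus 1634337_s_at, the groups overlapped, with a change of 0.09 (SE 0.078, exact permutation p = 0.3).

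The tra transcript encodes the splicing regulator that is functional in females, and its RNA is made in both sexes. Its normalized log2 signals were 7.67, 7.85 and 7.81 in single-housed heads and 8.05, 8.02 and 8.13 in group-housed heads. All 3 single-housed arrays lay below all 3 group-housed arrays. The means were 7.78 ± 0.097 and 8.07 ± 0.056 (single-housed and group-housed, SD, n = 3 each). The difference of -0.29 (SE 0.089) corresponds to a signal 1.22-fold lower in single-housed heads, with a 95% interval from 1.06 to 1.40, and limma gave an adjusted p of 0.499.

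The partner of tra, tra2, encodes an RNA-binding protein that binds with Tra to the regulated exons of dsx and fru. Its signals on 1639205_s_at were 7.76, 7.87 and 7.80 in single-housed heads, against 7.99, 7.99 and 8.05 in group-housed heads. The single-housed arrays again lay below all group-housed arrays, and the spread within each group was small, with an SD of 0.052 for single-housed heads and 0.031 for group-housed heads. The difference was -0.20 (SE 0.081), 1.15-fold lower in single-housed heads with a 95% interval from 1.01 to 1.31 (limma adjusted p 0.59). The exact permutation test gave p = 0.1 for tra and for tra2, its smallest possible value.

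Both separations depended on the scaling between arrays. As deposited, tra had intensities of 215, 235 and 195 in single-housed heads and 248, 210.4 and 266 in group-housed heads. For tra2 the intensities were 231, 237 and 192 in single-housed heads, against 236, 206 and 251 in group-housed heads. These values overlap for both genes. With the deposited scaling the differences were -0.15 for tra and -0.07 for tra2, while the median over all probe sets tested moved up by 0.12 to 0.10. Relative to the median of all probe sets, tra lay at -0.25 in the deposited scaling against -0.27 as quantile normalized, and tra2 at -0.17 against -0.18. Median centring gave differences of -0.24 and -0.16. Neither gene reached an unadjusted p of 0.05 under these scalings. The unadjusted limma p of tra was 0.34 as deposited and 0.083 after median centring, and that of tra2 was 0.67 and 0.25. As reported they were 0.011 and 0.035. Without single-housed replicate 1 the p was 0.0502 for tra and 0.11 for tra2.

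**Figure D2:**
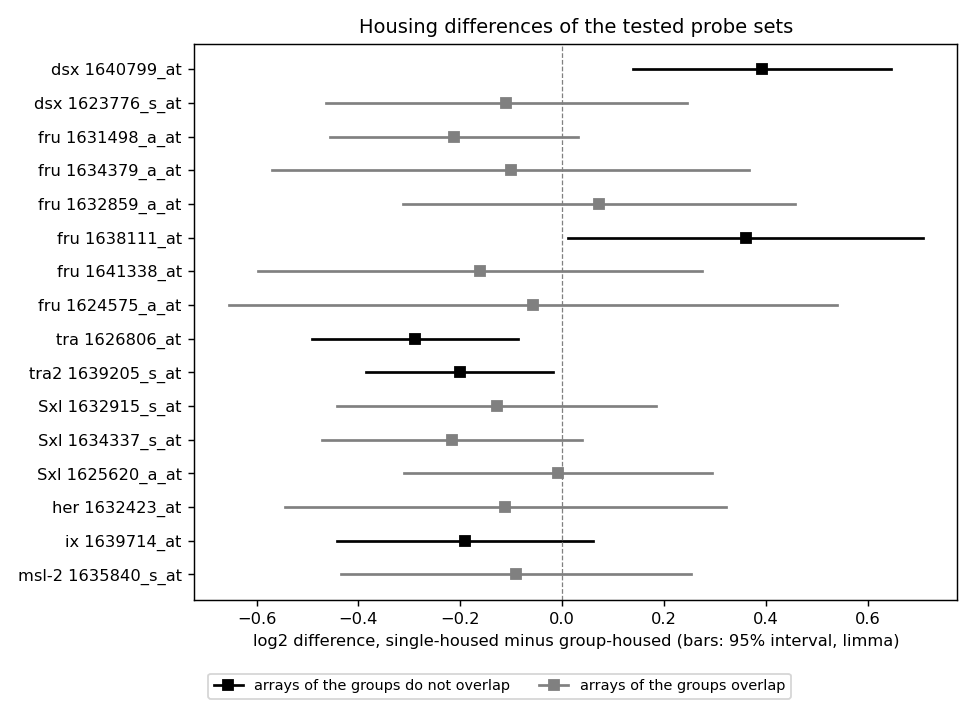
Log2 difference, single-housed minus group-housed, for the 16 member probe sets tested, with the 95% interval of the limma fit. Black marks probe sets whose 3 single-housed and 3 group-housed arrays do not overlap. The intervals of dsx 1640799_at and fru 1638111_at lie above 0, those of tra and tra2 below 0, and the other 12 include 0.

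The gene dsx encodes the zinc finger transcription factor at the end of the chain, made in a male and a female form that share their DNA-binding domain. On probe set 1640799_at the deposited intensities were 354, 346 and 252 in single-housed heads, and 237, 167 and 247 in group-housed heads. After normalization the log2 signals were 8.35, 8.38 and 8.17 in single-housed heads, against 7.997, 7.70 and 8.02 in group-housed heads. The lowest single-housed array lay above the highest group-housed array on both scales, though in the deposited values only narrowly.

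The mean of dsx 1640799_at was 8.30 ± 0.11 in single-housed heads and 7.91 ± 0.18 in group-housed heads (SD, n = 3 each). The difference of 0.39 (SE 0.11) is a 1.31-fold higher signal in single-housed heads, with a 95% interval from 1.10 to 1.56. It ranked 202 among 13138 probe sets by p, the first of the members, with a limma adjusted p of 0.441 and an exact permutation p of 0.1. The difference was larger with the deposited scaling, 0.52, and relative to the median of all probe sets it was 0.42 there and 0.41 after quantile normalization. Group-housed replicate 2 was the lowest array, and without it the difference was 0.29. The unadjusted limma p was 0.0068, and it stayed between 0.0035 and 0.03 under all 16 alternatives.

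The other dsx probe set, 1623776_s_at, was dim and lay on the other side. Its deposited intensities were 16.01, 19.8 and 18.9 in single-housed heads and 19.8, 12.7 and 26.2 in group-housed heads. Its normalized log2 signals were 4.98, 5.18 and 5.04 in single-housed heads, against 5.22, 5.00 and 5.31 in group-housed heads. The groups overlapped, and the difference was -0.11 (SE 0.16, limma adjusted p 0.894). By Affymetrix's naming, the ending _s_at marks a probe set whose probes may also match other transcripts, and _a_at one whose probes match several transcripts of the same gene.

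Taken within each array, 1640799_at minus 1623776_s_at was 3.37, 3.20 and 3.13 in single-housed heads and 2.78, 2.71 and 2.70 in group-housed heads. The size of this offset reflects the probes as well as the RNA, so only its change between groups is compared. It was 3.23 ± 0.12 in single-housed heads and 2.73 ± 0.044 in group-housed heads (SD, n = 3 each). The change was 0.50 (SE 0.074, from these SDs and not from a limma fit). The gap between the groups was larger than the spread within either, and the exact permutation test gave p = 0.1. Over the 19 pairs of member probe sets compared in this way, the groups did not overlap for 4, against 8.93% of the 1915 such pairs on the whole array, and the smallest adjusted p over the 19 was 0.475. The change was between 0.43 and 0.55 with any 1 array left out, and 0.60 and 0.38 with pseudocounts of 1 and 64. Since 1640799_at already separated the groups by itself, the separation of the pair is not independent of it.

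**Figure D3:**
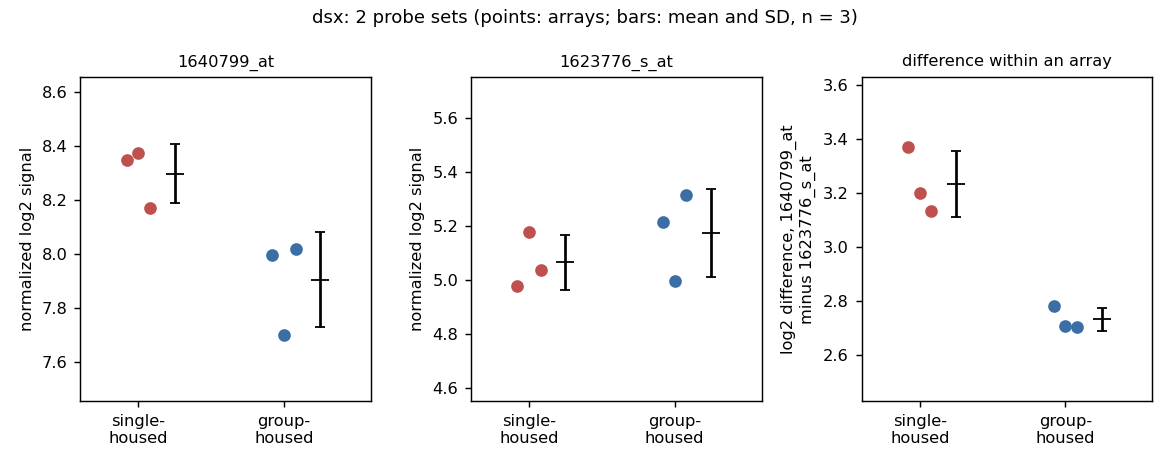
The 2 dsx probe sets and their difference within each array, on axes of equal height. Points are arrays and bars are mean and SD of 3 arrays. Single-housed arrays lie above group-housed arrays for 1640799_at and for the within-array difference, and overlap with them for 1623776_s_at.

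The 3 tested markers of the fat body lay on the same side as dsx 1640799_at. So did the 2 glia markers, 2 of 3 hemocyte markers and 3 of 4 male reproductive tract markers. On the other side lay the 3 photoreceptor and 3 muscle markers, 2 of 3 neuron markers and the 4 tested markers of female tissue. Of 5 fat body markers listed, 4 had a probe set annotated to 1 gene and 3 passed the filter, all with higher values in single-housed heads. The summed normalized intensity of the 4 ran from 10773 to 11710.1 on single-housed arrays, against 8699 to 10097 on group-housed arrays, without overlap. Of them fit, which is also in the list taken as targets of dsx and fru, was at 1.39 (SE 0.32, limma adjusted p 0.338). Without fit the sum ran from 8655 to 9257 on single-housed arrays, against 7930 to 8612 on group-housed arrays. Lsd-1, which encodes a protein of lipid droplets, was at 0.56 (SE 0.22, limma adjusted p 0.569) and the lipoprotein gene apolpp at 0.06 (SE 0.058). Npc2e, at -0.01, lay below the filter. For these 3 genes the groups overlapped after normalization. A sum weighs bright genes most, and apolpp was the brightest of the 4, with a mean log2 signal of 12.8. For such sums a share over the whole array was not computed. No marker was listed at 0. The part of fat body RNA in the dsx signal was not tested. In pooled heads, a change in the number of cells that make an RNA and a change in the RNA per cell cannot be told apart.

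By the likeness rule, the probe sets whose 6 array values most resembled dsx 1640799_at were those of bbg (Pearson r 0.996), Mes2 (0.993) and CG12093 (0.98), among 10732 probe sets of other genes. Of these, 64 probe sets had an r above 0.9. The differences of these 3 were 0.43, 0.36 and 0.14, with limma adjusted p of 0.431, 0.499 and 0.68. The 3 were picked over the same 6 arrays on which dsx 1640799_at separated the groups, so their sign follows from the choice.

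The gene fru encodes a family of BTB zinc finger transcription factors, and its male forms are known to set up the circuits for male courtship. Its 7 probe sets did not lie on one side. The brightest, 1631498_a_at, had normalized log2 signals of 7.66, 7.80 and 7.63 in single-housed heads, against 8.02, 7.72 and 7.99 in group-housed heads. Group-housed replicate 2 lay among the single-housed arrays, and the other group-housed arrays lay above them. The difference was -0.21 (SE 0.11, limma adjusted p 0.648), and -0.31 without group-housed replicate 2.

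Probe set 1638111_at lay on the other side. Its deposited intensities were 26.4, 20.5 and 31.9 in single-housed heads and 13.3, 12.9 and 20.4 in group-housed heads. Normalized, they were 5.33, 5.20 and 5.55 in single-housed heads, against 4.93, 5.01 and 5.08 in group-housed heads. Every single-housed array lay above every group-housed array, by a narrow margin as deposited. The means were 5.36 ± 0.18 and 5.00 ± 0.075 (single-housed and group-housed, SD, n = 3 each), with a difference of 0.36 (SE 0.15), 1.28-fold higher in single-housed heads (95% interval 1.01 to 1.63, limma adjusted p 0.602, exact permutation p = 0.1). The signal was close to the filter bound of 4.69, and the pseudocount, the intensity added before taking logs, sets part of the size: the difference was 0.61 with a pseudocount of 1 and 0.16 with a pseudocount of 64. Its unadjusted limma p, 0.044, stayed below 0.05 in 5 of the 15 alternatives that tested it, and reached 0.14 without single-housed replicate 3.

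Within each array, 1631498_a_at minus 1638111_at was 2.33, 2.60 and 2.07 in single-housed heads and 3.09, 2.71 and 2.91 in group-housed heads. The groups did not overlap, and the change was -0.57 (SE 0.19, exact permutation p = 0.1). It was -0.84 and -0.33 with pseudocounts of 1 and 64. This was the 1 pair of 15 fru pairs without overlap.

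The remaining fru probe sets were dim, and their groups overlapped. On 1634379_a_at the log2 signals ran from 5.23 to 5.87 in single-housed heads and from 5.33 to 5.78 in group-housed heads, with a difference of -0.10 (SE 0.21). On 1632859_a_at the difference was 0.07 (SE 0.17), on 1641338_at -0.16 (SE 0.19) and on 1624575_a_at -0.06 (SE 0.26). On the untested 1629904_at the deposited intensities were 3.70, 2.13 and 7.99 in single-housed heads, against 13.6, 7.84 and 4.15 in group-housed heads. Of the 6 fru probe sets tested, 2 had higher and 4 had lower mean values in single-housed heads. The 3 probe sets most like fru 1631498_a_at over the 6 arrays were those of CG14464 (Pearson r 0.989), CG7519 (0.967) and Nep4 (0.964), with 84 of 10728 above 0.9.

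The zinc finger gene her and the Mediator subunit gene ix are known to act with dsx, in the control of yolk protein genes and, for ix, as the partner of the female Dsx form. For ix the normalized log2 signals were 6.36, 6.38 and 6.36 in single-housed heads and 6.43, 6.52 and 6.73 in group-housed heads. The single-housed arrays lay within an SD of 0.011 and below all group-housed arrays, whose SD was 0.15. The difference was -0.19 (SE 0.11, limma adjusted p 0.691, exact permutation p = 0.1). In the deposited intensities, 75.0, 70.4 and 63.4 in single-housed against 68.6, 65.2 and 92.4 in group-housed heads, the groups overlapped. The difference was -0.08 with the deposited scaling and -0.11 without group-housed replicate 3.

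For her the signals were 6.13, 5.68 and 6.12 in single-housed heads, against 5.84, 5.97 and 6.45 in group-housed heads. Both groups spread over more than the difference of -0.11 (SE 0.19, limma adjusted p 0.915). That difference was at 0.03 without single-housed replicate 2, the lowest array, and at 0.07 without group-housed replicate 3, the highest.

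The gene msl-2 encodes the male-limited subunit of the dosage compensation complex, which raises transcription of the male X chromosome. Its log2 signals were 7.24, 7.24 and 6.77 in single-housed heads and 7.34, 7.002 and 7.17 in group-housed heads. The third single-housed array was the lowest of the 6, and the groups overlapped. The difference was -0.09 (SE 0.15, limma adjusted p 0.912), and 0.07 without that array.

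Single arrays stood at the extremes of many members. Group-housed replicate 3 gave the highest value for 8 of the 16 tested member probe sets, and for 24.1% of all probe sets tested. Single-housed replicate 3 gave the lowest value for 6 of the 16, and for 18.3% of all. Of the 16, 3 had a difference above 0 and 13 below 0 after quantile normalization. With the deposited scaling 7 lay above and 8 below 0, of 15 tested. Without group-housed replicate 3 the counts were 7 above and 9 below. Relative to the median of all probe sets, 4 of 16 lay above it once quantile normalized, and 4 of 15 both as deposited and with median centring.

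Genes that work with the members were read from 8 lists, 1 probe set to a gene. Of 85 genes in these lists 81 passed the filter, and none passed limma's adjusted p of 0.05 (0 of 81). At an unadjusted p of 0.05 there were 6 of the 81, beside the 8.24% of the whole array. The sign of a list's median depended on the scaling, since the median of all probe sets lay at -0.02 as reported and at 0.10 with the deposited scaling. Upstream of Sxl, the genes that count X chromosomes or set up its expression had 1 of 4 tested members with a higher and 3 with a lower mean in single-housed heads. Their median was -0.08, and 0.08 with the deposited scaling, with the repressor genes gro at -0.15 (SE 0.11) and emc at -0.15 (SE 0.11), and dpn at 0.30 (SE 0.29). The RNA methylation writers and splicing partners of Sxl had a median of -0.01 over 8 genes, 4 on either side, and of 0.10 with the deposited scaling and 0.02 with median centring, with Flacc at -0.20 (SE 0.12), Ythdc1 at -0.13 (SE 0.16) and Hakai at 0.08 (SE 0.10).

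The list around msl-2, the dosage compensation complex, had a median of 0.03, with 4 of 7 genes above 0, and of 0.17 with the deposited scaling. The histone acetyltransferase gene mof was at 0.28 (SE 0.16) and the kinase gene JIL-1 at -0.20 (SE 0.14). The chromodomain gene msl-3, on the brighter of its 2 probe sets, was at -0.23 (SE 0.16). Splicing partners of tra and tra2 had 3 of 6 genes on either side of 0 and a median of -0.02, which was 0.11 with the deposited scaling and 0.03 with median centring. Among them the kinase gene Doa was at -0.18 (SE 0.079) on its brightest probe set, while its others were at 0.37 and 0.00. SF2 was at 0.11 (SE 0.077), with its other probe set at -0.09, and B52 was at -0.10 (SE 0.093), with its others at 0.12, -0.02, -0.11 and -0.08.

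The Mediator complex, of which ix is a subunit, had 15 of 26 other subunits below 0 and 11 above, with a median of -0.06 that was 0.06 with the deposited scaling and -0.02 with median centring. MED31 was at -0.21 (SE 0.088), the cyclin gene CycC at -0.19 (SE 0.091) and MED28 at 0.21 (SE 0.10), and ix at -0.19 lay within the range of the complex, from -0.23 to 0.21. Relatives of fru among the BTB zinc finger genes had a median of 0.02 over 9 genes. It was 0.11 with the deposited scaling, and -0.01 with the mean over all probe sets of a gene. Among them mod(mdg4) was at -0.15 (SE 0.085), bab2 at 0.15 (SE 0.10) and chinmo at -0.18 (SE 0.14). Only the brightest of 22 probe sets of mod(mdg4) and of 3 of chinmo is given. Regulators of courtship neurons had a median of -0.11, with 9 of 12 genes below 0, and of 0.02 with the deposited scaling and -0.07 with median centring. Here the activity-regulated nuclear receptor gene Hr38 was at -0.37 (SE 0.11, limma adjusted p 0.447), with its other probe set at -0.16. The dsx relative dmrt99B was at -0.35 (SE 0.22) and dati, on the brighter of its 2 probe sets, at -0.17 (SE 0.12).

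The list taken as targets of dsx and fru had the widest range of the 8 lists, from -0.58 to 1.39. Whether each listed gene, fit among them, is a target of dsx or fru was not tested. The highest value was that of fit, and the next was 0.76 for Obp99b. The median of the list was 0.13, with 10 of 13 genes above 0. This median was 0.27 with the deposited scaling and 0.19 with median centring. Those with the smallest p were the odorant binding protein gene Obp99b at 0.76 (SE 0.13, limma adjusted p 0.178), the P450 gene Cyp4d21 at 0.38 (SE 0.068, limma adjusted p 0.178) and fit, a fat body peptide gene, at 1.39 (SE 0.32, limma adjusted p 0.338). For fit and Obp99b the adjusted p was 0.00253 and 0.00126 with the deposited scaling, where the median of all probe sets lay at 0.10. The yolk protein genes, which the female Dsx form is known to activate and the male form to repress, had lower mean values in single-housed heads. Yp1 was at -0.58 (SE 0.38), with 5.82 ± 0.12 in single-housed heads and 6.40 ± 0.92 in group-housed heads, Yp2 at -0.47 (SE 0.44), and Yp3 at -0.07 (SE 0.18), where the SD is over 3 arrays each. The groups overlapped for all 3.

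**Figure D4:**
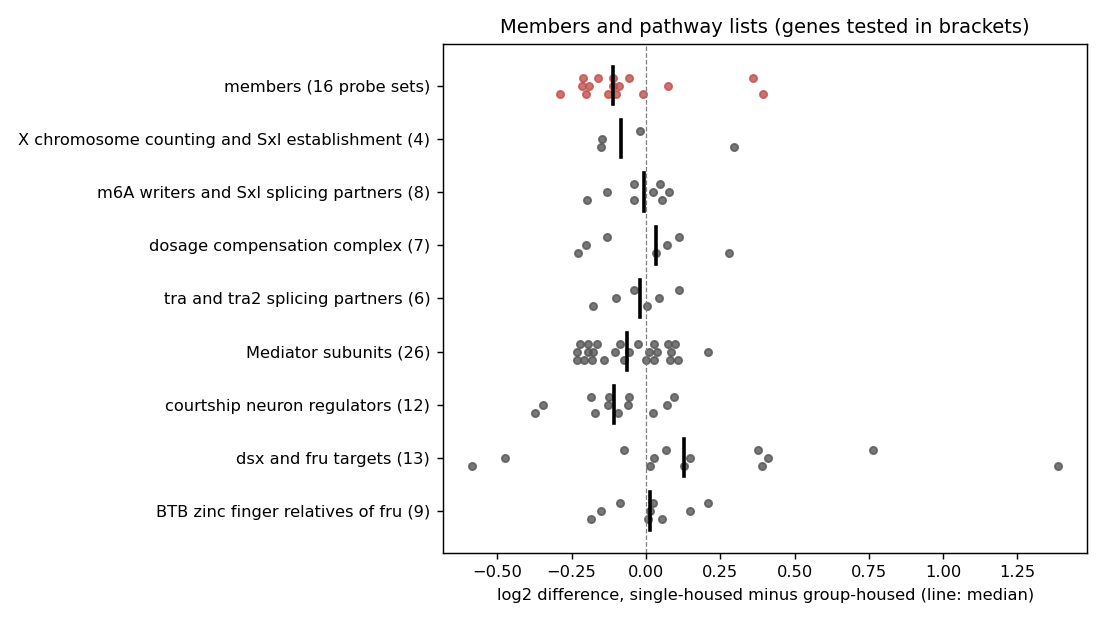
Log2 differences, single-housed minus group-housed, of the 16 member probe sets (red) and of the tested genes of 8 pathway lists (grey), with the median of each as a black line. Most genes lie within 0.25 of 0, and the list taken as dsx and fru targets spreads from -0.58 to 1.39.

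The labelled tissue and sex were read against marker lists. Photoreceptor, neuron and glia markers on the array, such as Arr2, elav and repo, all passed the filter. The 2 glia markers were higher in single-housed heads, repo at 0.04 (SE 0.075) and moody at 0.13 (SE 0.072). For moody the groups did not overlap after normalization and overlapped as deposited. The 3 photoreceptor markers were lower in single-housed heads, and of 3 neuron markers 1 was higher and 2 were lower. The 4 markers of the male reproductive tract lay near the filter bound, with means over all 6 arrays between 4.73 and 4.98. Of 5 markers of female tissue 4 passed, all with lower mean values in single-housed heads and a median difference of -0.53. Among them were the 3 yolk protein genes above and the vitelline membrane gene Vm26Aa, at -0.61 (SE 0.22, limma adjusted p 0.554). The groups of Vm26Aa did not overlap after normalization and overlapped as deposited. Its mean over all 6 arrays, 4.82, was near the filter bound. The fifth marker, Cp15, lay below that bound, with a difference of 0.28. The summed intensity of the 5 was 160 to 276 on single-housed and 189 to 382 on group-housed arrays. Of 3 hemocyte markers, which read blood cells, NimC1 was at 0.27 (SE 0.11, limma adjusted p 0.594) and eater at 0.22 (SE 0.11, limma adjusted p 0.633), while Hml was at -0.18 (SE 0.12). The groups of NimC1 and eater did not overlap on either scale. Normalized, the groups did not overlap for 14.2% of all probe sets tested. No such share is given for the deposited values, where the median difference of all probe sets was 0.10. The summed intensity of the 3 was 491 to 579 on single-housed and 510 to 587 on group-housed arrays. The 3 muscle markers lay between -0.13 and -0.02 and their groups overlapped. The part of RNA from these tissues in the values of the members was not tested.

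**Figure D5:**
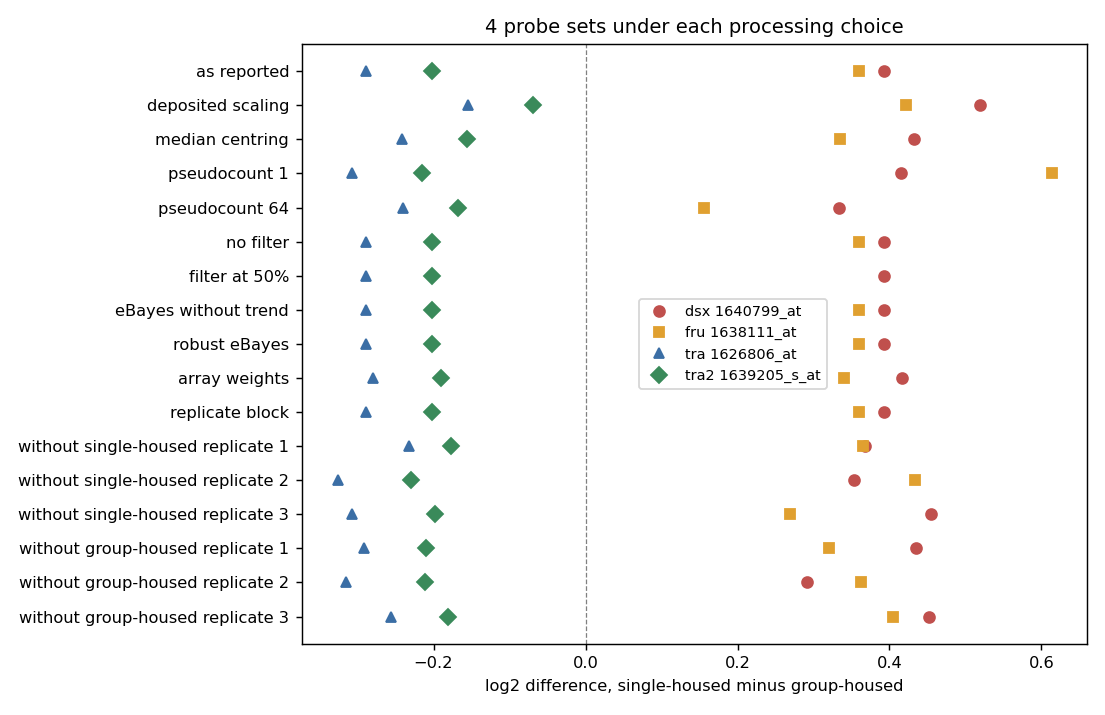
Log2 difference, single-housed minus group-housed, of the 4 member probe sets with an unadjusted p of 0.05 or less, under the processing as reported and each of 16 alternatives. dsx 1640799_at and fru 1638111_at stay above 0 and tra and tra2 stay below 0 throughout; fru 1638111_at is not tested with the filter at 50%.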

How the data were processed

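RNA from pooled male heads was hybridised to 1-colour Affymetrix arrays, per the labels. The authors deposited 1 linear signal intensity per probe set and array; what summary algorithm or scaling was used is not given in the sources used here. The table held 18952 probe sets, of which 183 controls were left out. The platform annotation gave 1 gene for 13647 of the other 18769, and 13544 matched a gene ID of the RefSeq table of Release 6 plus ISO1 MT, which was used for names only. Values were taken as log2(intensity + 16), quantile normalized, and filtered on the mean over all 6 arrays. The groups were tested with limma 3.58.1 (lmFit, eBayes with an intensity trend; R 4.3.3), with 2-sided tests, Benjamini-Hochberg adjustment over 13138 probe sets and a threshold of 0.05. The fit was tested on simulated data, with added changes larger than any difference of a member. An intensity carries no count, so the number of arrays limits the precision.

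The genes, lists and tests were chosen with earlier results of these data known. All members are given with every probe set. Those of genes with 1 probe set are 1626806_at for tra, 1639205_s_at for tra2, 1632423_at for her, 1639714_at for ix and 1635840_s_at for msl-2. The ending _s_at of those of tra2 and msl-2 is shared by 1623776_s_at of dsx and by 1632915_s_at and 1634337_s_at of Sxl. Of each list, up to 3 genes with the smallest p are named, each through its brightest probe set, plus marker genes and the 3 probe sets most like dsx and fru. The 16 alternatives changed the scaling, the pseudocount, the filter, the variance model (robust eBayes with statmod 1.5.0), the array weights and the replicate block, or left out 1 array. The block was not the design of the main fit, since nothing in the labels ties arrays of the same number.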

Additional observations from a re-analysis of the deposited data

How the results depend on the processing

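No member probe set passed the threshold under any of the 16 alternatives. The difference of dsx 1640799_at stayed above 0 in all 16, from 0.29 to 0.52, with limma adjusted p from 0.245 to 0.969. Its within-gene change was 0.60 with a pseudocount of 1 and 0.38 with a pseudocount of 64.

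The count of calls over the whole array, 2 as reported, was 78 with the deposited scaling, 11 with median centring, 1 each with a pseudocount of 64, no filter and a filter at 50%, 0 when eBayes had no trend (985 at an unadjusted p of 0.05), 5 with array weights and 32 with the replicate block, and 0 to 47 with 1 array left out. The replicate block changed no call of a member. Deviations of same-numbered arrays from their group means correlated at 0.03, 0.11 and 0.33, and not every array correlated best with its own number, so the numbers were not taken as pairs. With the filter at 50%, 11 member probe sets were tested. Of the genes in the 8 lists, 2 passed with the deposited scaling, Obp99b and fit.

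At an unadjusted limma p of 0.05, dsx 1640799_at held in 16 of 16 alternatives, tra in 13, tra2 in 9, and fru 1638111_at in 5 of 15. Signs turned for differences near 0. With the deposited scaling fru 1634379_a_at was at 0.010, Sxl 1632915_s_at at 0.039, Sxl 1625620_a_at at 0.11 and msl-2 at 0.035. Sxl 1625620_a_at was at 0.027 with median centring and 0.0048 with array weights. With 1 array left out, fru 1634379_a_at ran from -0.31 to 0.015, fru 1624575_a_at from -0.33 to 0.023, fru 1632859_a_at from -0.023 to 0.22, Sxl 1632915_s_at from -0.25 to 0.040, Sxl 1625620_a_at from -0.12 to 0.12, her from -0.23 to 0.071 and msl-2 from -0.18 to 0.068. The causes were not tested. Dim probe sets limit what can be seen, since their values depend on the added intensity.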
